A study of Mus musculus with 19 samples.

Results

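Interferon-stimulated genes were followed in the lungs of mice given benzo(a)pyrene (BaP, a combustion product whose metabolites form bulky DNA adducts), to ask whether DNA damage went with an interferon response. The set named 9 genes: Isg15, Usp18, Irf7, Oas2, Rsad2, Ifit1, Ifit2, Ifit3 and Mx2. They were chosen by name, with earlier results of these data known. Probes were taken where the array's own accession mapped to one of those symbols. A probe was matched for 8 of the 9 genes, 12 probes in all, and all 8 passed the filter on dim probes, out of 19328 genes tested on 41174 probes. Mx2 had no matched probe and was not analysed here. The animals were 19 male MutaMouse mice of transgenic strain 40.6, aged 25 weeks, exposed daily for 28 days by gavage. They comprised 5 vehicle controls (mice 1 to 5), 5 mice at 25 mg/kg/day of BaP (mice 6 to 10), 4 at 50 mg/kg/day (mice 12 to 15) and 5 at 75 mg/kg/day (mice 16 to 20), and a piece of lung was collected 3 days after dosing ended. All groups, the controls included, carry the strain's mutation reporter transgene. Each mouse had 1 two-colour Agilent array, on which its lung RNA (Cy5) was read against a common reference RNA from 11 mouse cell lines (Cy3). A value is therefore a log2 ratio of lung over reference, and a negative one means less of that RNA in lung than in the cell line pool. Ratios of different genes cannot be ranked against each other, and whole lung RNA cannot tell fewer cells of a type from less RNA per cell.

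Type I and type III interferons are secreted when a cell senses foreign or misplaced nucleic acid. They act through JAK kinases on transcription factors that join IRF9 in a complex that binds interferon-stimulated response elements (ISREs) in promoters and switches on a shared set of antiviral genes. DNA damage is known to feed this pathway in some settings when DNA escapes into the cytosol and is sensed by cGAS and STING. The genes followed here are widely read as such a signature. Interferon gamma acts through a different element, the GAS site, and leads to an overlapping set that includes guanylate binding proteins and antigen presentation genes.

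Promoter windows are shown for 4 of the genes that stood high together in 1 mouse, as described with their values. RefSeq windows on GRCm38.p6, from 250 bases before the annotated start to 50 after it, were held for 6 of the 9 genes, and Oas2, Usp18 and Mx2 were not in the table used. The windows are those of Isg15 (chr4:156200769-156201068, minus strand), Rsad2 (chr12:26456403-26456702, minus strand), Ifit1 (chr19:34640639-34640938, plus strand) and Irf7 (chr7:141266375-141266674, minus strand), each read 5′ to 3′ along its gene.
Isg15 promoter: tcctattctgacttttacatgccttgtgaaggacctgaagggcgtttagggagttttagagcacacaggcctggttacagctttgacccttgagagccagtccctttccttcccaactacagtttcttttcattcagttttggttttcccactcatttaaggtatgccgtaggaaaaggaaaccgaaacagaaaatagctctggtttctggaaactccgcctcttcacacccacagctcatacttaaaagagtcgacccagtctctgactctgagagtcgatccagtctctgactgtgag
Rsad2 promoter: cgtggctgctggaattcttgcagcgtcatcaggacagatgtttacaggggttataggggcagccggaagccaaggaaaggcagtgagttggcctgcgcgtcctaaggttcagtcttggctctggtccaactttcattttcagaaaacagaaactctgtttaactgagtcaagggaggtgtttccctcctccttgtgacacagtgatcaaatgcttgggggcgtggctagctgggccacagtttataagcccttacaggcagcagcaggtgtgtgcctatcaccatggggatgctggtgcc
Ifit1 promoter: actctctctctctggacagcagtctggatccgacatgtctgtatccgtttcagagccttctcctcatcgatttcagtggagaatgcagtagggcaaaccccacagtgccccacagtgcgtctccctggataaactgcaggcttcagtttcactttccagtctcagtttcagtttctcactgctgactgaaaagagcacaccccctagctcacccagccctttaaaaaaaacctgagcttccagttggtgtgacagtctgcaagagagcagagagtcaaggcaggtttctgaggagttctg
Irf7 promoter: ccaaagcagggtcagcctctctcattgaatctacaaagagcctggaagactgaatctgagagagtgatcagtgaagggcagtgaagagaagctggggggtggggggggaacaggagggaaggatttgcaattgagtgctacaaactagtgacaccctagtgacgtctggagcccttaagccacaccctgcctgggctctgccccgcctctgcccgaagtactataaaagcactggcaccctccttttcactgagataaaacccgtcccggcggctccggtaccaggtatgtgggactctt

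On the arrays 19777 to 27279 spots per array stood well above background in the lung channel. There were 6 slides and 5 scan days. The probe used for each gene was well above background on all 19 arrays, except that of Oas2, on 18. Lung markers such as surfactant genes had a mean log2 ratio between 5.01 and 5.75 in each of the 19 mice. Feature Extraction's quality report marked 4 arrays for evaluation, those of controls 1 and 3, mouse 12 and mouse 20, and placed control 4 in range. The transcript read here as a sign of DNA damage was Cdkn1a, the p53 target that encodes the cell cycle inhibitor p21. It averaged -1.35 ± 0.26 in controls (SD, n = 5), 0.01 ± 0.41 at 25 mg/kg/day (n = 5), 1.25 ± 0.26 at 50 mg/kg/day (n = 4) and 1.93 ± 0.53 at 75 mg/kg/day (n = 5) on the log2 ratio scale.

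None of the 8 measured interferon-stimulated genes passed the threshold at any BaP dose, while 1 undosed animal, control 4, stood above every other mouse in 7 of the 8. At 25 mg/kg/day 0 of 8 were called, where limma called 0.0517% of all genes (adjusted p under 0.05, Benjamini-Hochberg over 19328 genes). At 50 mg/kg/day 0 of 8 were called, against 1.08% of all genes, and at 75 mg/kg/day 0 of 8, against 4.14%. At shares this low, a count of 0 among 8 genes is near the background. At an unadjusted p under 0.05 there was 1 member at each of 25 and 50 mg/kg/day, Oas2 both times, and 0 at 75 mg/kg/day. The median log2 difference of the 8 genes from control was -0.28, -0.19 and -0.01 at 25, 50 and 75 mg/kg/day, against 0.01, 0.00 and -0.01 over the 19304 genes with a value in every mouse. Without control 4 the medians of the 8 genes were 0.00, 0.04 and 0.18. The range of the treated mice overlapped that of the 5 controls for every member at every dose, and over all genes 1.45%, 4.5% and 4.7% did not overlap at the 3 doses.

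**Figure D1:**
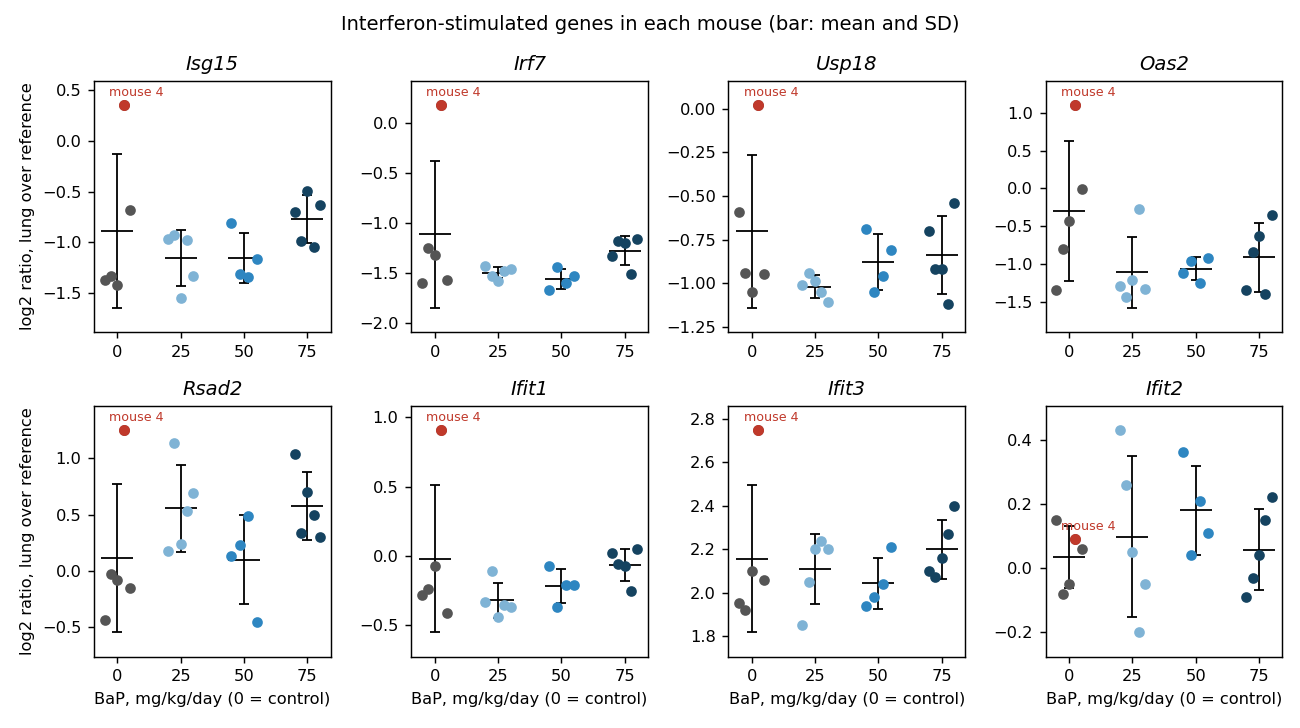
Log2 ratio of lung over reference RNA (y axis) in each of the 19 mice by BaP dose in mg/kg/day (x axis, 0 is vehicle control) for the 8 interferon-stimulated genes measured. Points are mice, bars are the group mean and SD (n = 5, 5, 4 and 5), and control mouse 4 is red: it is the highest point in every panel except Ifit2.

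Isg15 encodes a ubiquitin-like protein that is joined to other proteins after interferon, and Usp18 encodes the protease that removes it and that also damps the type I interferon receptor. Isg15 was at -1.37, -1.33, -1.42, 0.35 and -0.68 in controls 1 to 5. It was at -0.97, -0.93, -1.55, -0.98 and -1.33 at 25 mg/kg/day, at -0.81, -1.31, -1.34 and -1.16 at 50 mg/kg/day, and at -0.70, -0.99, -0.49, -1.05 and -0.63 at 75 mg/kg/day. Control 4 alone was above 0, and treated mice spanned -1.55 to -0.49, on either side of the -1.42 to -0.68 of the other controls. The log2 difference from control was -0.26 ± 0.26, -0.27 ± 0.27 and 0.12 ± 0.26 (SE) at 25, 50 and 75 mg/kg/day, with limma adjusted p of 0.859, 0.745 and 0.867, and without control 4 it was 0.05, 0.04 and 0.43. Usp18 was at -0.59, -0.94, -1.05, 0.02 and -0.95 in controls 1 to 5. In treated mice it was at -1.01, -0.94, -0.99, -1.05 and -1.11 at 25 mg/kg/day, at -0.69, -1.05, -0.96 and -0.81 at 50 mg/kg/day, and at -0.70, -0.92, -0.92, -1.12 and -0.54 at 75 mg/kg/day. Again control 4 was the only mouse above 0, and control 1 was the next highest control. Its differences of -0.32 ± 0.16, -0.17 ± 0.17 and -0.14 ± 0.16 had limma adjusted p of 0.656, 0.721 and 0.720, and were -0.14, 0.01 and 0.04 without control 4.

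Irf7, the transcription factor that amplifies type I interferon production and is itself induced by interferon, set control 4 clearly apart. It was at -1.60, -1.25, -1.32, 0.18 and -1.57 in controls 1 to 5. Treated mice were at -1.43, -1.53, -1.58, -1.48 and -1.46 at 25 mg/kg/day, at -1.67, -1.44, -1.60 and -1.53 at 50 mg/kg/day, and at -1.33, -1.18, -1.20, -1.51 and -1.16 at 75 mg/kg/day. The 18 mice other than control 4 spanned -1.67 to -1.16, and control 4 lay over 1 log2 unit above the top of that span. Irf7 differed from control by -0.38 ± 0.23, -0.45 ± 0.24 and -0.16 ± 0.23 at the 3 doses (limma adjusted p = 0.726, 0.463 and 0.779), and by -0.06, -0.12 and 0.16 without control 4. The controls, 5 of the 19 mice, held 94.4% of the within-group sum of squares of this gene.

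The antiviral effectors came next. Oas2 encodes an enzyme that makes oligoadenylates on double-stranded RNA and so activates RNase L. It was at -1.35, -0.80, -0.43, 1.10 and -0.01 in controls 1 to 5, the widest spread of any member. It was at -1.29, -1.44, -1.22, -0.28 and -1.33 at 25 mg/kg/day, at -1.12, -0.96, -1.25 and -0.92 at 50 mg/kg/day, and at -1.35, -0.85, -0.63, -1.40 and -0.35 at 75 mg/kg/day. Most treated mice lay in the lower part of the control range, and control 1 lay there too. The Oas2 difference from control was -0.81 ± 0.34 at 25 mg/kg/day (unadjusted p = 0.0254, limma adjusted p = 0.561), and -0.77 ± 0.36 and -0.62 ± 0.34 at 50 and 75 mg/kg/day (adjusted p = 0.373 and 0.360). Without control 4 those differences were -0.46, -0.42 and -0.27. A second Oas2 probe was not well above background on any array and gives no value.

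Rsad2 encodes viperin, an enzyme that makes a chain-terminating nucleotide against viral polymerases. It was at -0.44, -0.03, -0.08, 1.25 and -0.15 in controls 1 to 5. At 25 mg/kg/day it was at 0.18, 1.13, 0.24, 0.53 and 0.69, at 50 mg/kg/day at 0.13, 0.23, 0.49 and -0.45, and at 75 mg/kg/day at 1.04, 0.34, 0.70, 0.50 and 0.30. All mice at 25 and 75 mg/kg/day lay above controls 1, 2, 3 and 5, and all lay below control 4. With all mice the differences were 0.44 ± 0.26, -0.01 ± 0.28 and 0.46 ± 0.26 at the 3 doses (limma adjusted p = 0.725, 0.993 and 0.388). The 2 dimmer Rsad2 probes disagreed in size with the probe used: they differed from control by 0.16 ± 0.10 and 0.19 ± 0.10 at 75 mg/kg/day, and in control 4 they exceeded the other controls by 0.33 and -0.05.

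The Ifit genes encode tetratricopeptide repeat proteins that bind viral RNA or hinder its translation. Ifit1 was at -0.28, -0.24, -0.07, 0.91 and -0.41 in controls 1 to 5. Its treated values were -0.33, -0.11, -0.44, -0.35 and -0.37 at 25 mg/kg/day. They were -0.07, -0.37, -0.21 and -0.21 at 50 mg/kg/day, and 0.02, -0.06, -0.07, -0.25 and 0.05 at 75 mg/kg/day. No treated mouse exceeded 0.05, and the differences of -0.30, -0.20 and -0.04 had limma adjusted p of 0.720, 0.711 and 0.936, against -0.07, 0.04 and 0.19 without control 4. Ifit3 was at 1.95, 1.92, 2.10, 2.75 and 2.06 in controls 1 to 5. Treated mice had 1.85, 2.05, 2.20, 2.24 and 2.20 at 25 mg/kg/day. They had 1.94, 1.98, 2.04 and 2.21 at 50 mg/kg/day, and 2.10, 2.07, 2.16, 2.27 and 2.40 at 75 mg/kg/day. The differences lay between -0.11 and 0.04, and mouse 20, the highest treated mouse, stayed below control 4. A near-identical copy, Ifit3b, could share this probe's signal, so the Ifit3 values are uncertain as to which gene they measure.

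Ifit2 was the member in which control 4 was not the highest mouse. It was at 0.15, -0.08, -0.05, 0.09 and 0.06 in controls 1 to 5, so control 4 lay inside the range of the other controls. The treated values were 0.43, 0.26, 0.05, -0.20 and -0.05 at 25 mg/kg/day. They were 0.36, 0.04, 0.21 and 0.11 at 50 mg/kg/day, and -0.09, -0.03, 0.04, 0.15 and 0.22 at 75 mg/kg/day. The highest mouse was mouse 6 at 25 mg/kg/day, and the groups overlapped throughout (differences 0.07 ± 0.10, 0.15 ± 0.11 and 0.02 ± 0.10, limma adjusted p = 0.931, 0.623 and 0.944). Its second, dimmer probe put control 4 at -0.01 relative to the other controls.

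The excess of control 4 over the mean of the other 4 controls was 3.36-fold for Oas2, 3.08-fold for Irf7, 2.93-fold for Isg15, 2.69-fold for Rsad2, 2.25-fold for Ifit1, 1.86-fold for Usp18, 1.68-fold for Ifit3 and 1.05-fold for Ifit2. These folds are descriptions of 1 animal with no replicate. In the lung channel taken alone the excess was 1.79, 1.77, 1.62, 1.42, 1.21, 1.00, 1.01 and 0.07 log2 units for the same genes in the same order. In the reference channel it was -0.02, 0.09, 0.04, 0.10, 0.16, 0.16, 0.46 and 0.02, Ifit3 having the highest. Over all genes control 4 was the highest mouse for 7.52%, against 87.5% of the members (7 of 8) and 48.6% of 35 other interferon-induced effectors (17 of 35). It was highest in 9.09% of 22 genes led by interferon gamma and 23.8% of 21 receptor and signalling genes. It was highest in 33.3% of 18 nucleic acid sensors and none of 16 p53 targets. Among the 22 genes led by interferon gamma, dosed mice were highest more often. Mouse 20 (75 mg/kg/day) was highest in 36.4% and mouse 10 (25 mg/kg/day) in 31.8%, against 4.51% and 4.95% of all genes. The mean log2 ratio of control 4 over the 8 members was 0.83. The remaining controls had -0.44 to -0.21 and treated mice -0.41 to 0.04.

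**Figure D2:**
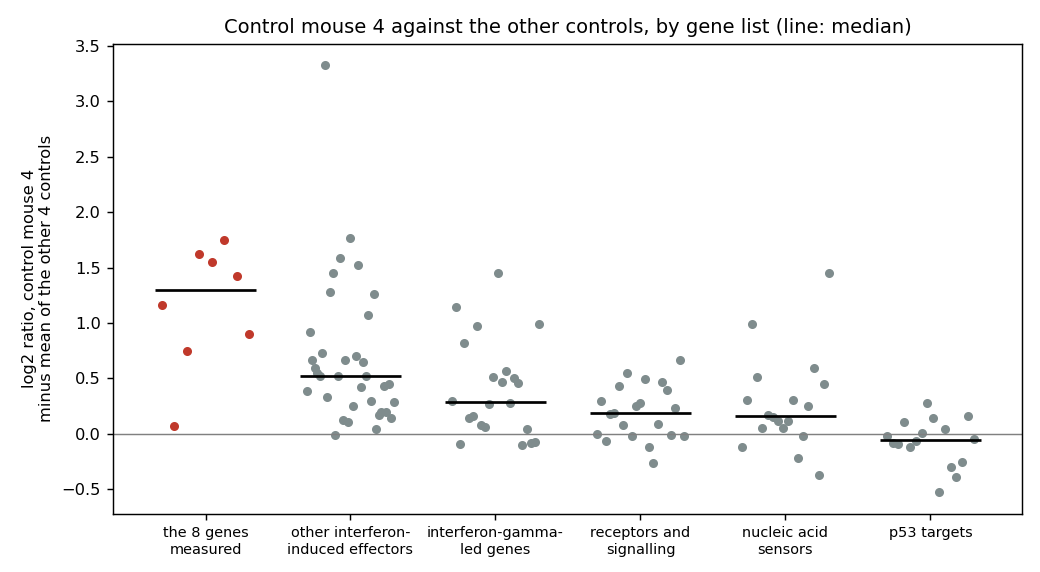
Log2 ratio of control mouse 4 minus the mean of the other 4 controls (y axis) for each gene of 6 lists (x axis); points are genes and lines are list medians. The 8 measured members have a median of 1.30, other interferon-induced effectors 0.52, and p53 targets -0.06.

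Control 4 was also at the top for some markers of other cells, with treated mice close below. Its mean log2 ratio was 3.51 over the 7 alveolar macrophage markers with a value in every mouse, 2.23 over 10 neutrophil markers and 0.92 over 8 B cell markers, where the other mice reached at most 3.35, 2.20 and 0.82 and the lowest control was at 2.04, 0.90 and 0.38. The neutrophil list includes Ltf, which airway gland cells also express and which exceeded the other controls by 4.79 in control 4, while the median excess over that list was 0.44. It was the highest mouse in 3 of the 7 alveolar macrophage markers, 2 of the 10 neutrophil markers, 3 of the 8 B cell markers, 2 of 6 plasmacytoid dendritic cell markers and 2 of 6 monocyte markers, and in none of the T cell, NK cell or lung markers. The part of these cells in the interferon-stimulated values of control 4 was not tested. Its array shared slide 4 with mouse 9 (25 mg/kg/day) and mouse 18 (75 mg/kg/day), in which Irf7 was at -1.48 and -1.20 (mice 9 and 18). Mouse 9 was the highest of its group for Oas2 (-0.28) and Ifit3 (2.24), and mouse 18 for Isg15 (-0.49). For Ifit1, Ifit2, Irf7, Rsad2 and Usp18 neither mouse was the highest of its group. The part of the slide in the values of control 4 was not tested.

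Correlation between members within dose groups was high with that mouse and near 0 without it. Over the 28 pairs of members, the correlation of residuals from the dose group means had a median of 0.63 (range -0.15 to 0.90) across 19 mice, and of -0.03 (range -0.37 to 0.48) across the 18 mice without control 4. The residual SD without and with control 4 was 0.126 and 0.394 for Irf7, 0.125 and 0.296 for Ifit1, 0.277 and 0.447 for Isg15, and 0.33 and 0.459 for Rsad2. For Ifit2 it was 0.169 without and 0.164 with that mouse. Ranked by likeness to the mean of the scaled members across 19 mice, the closest other genes were Clca1 (r = 0.937), Fabp7 (0.911), Rtp4 (0.881), St8sia6 (0.879), Oas1a (0.876), Padi4 (0.876), Selp (0.870), Ifi44 (0.860) and Pcp4 (0.849), with 1 more under an accession only. Without control 4, r was 0.682 for Rtp4, 0.623 for Ifi44 and 0.575 for Oas1a, all 3 known as interferon-induced, and between 0.025 and 0.419 for the other named genes. These values share the libraries and describe the mice without a test.

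Left out of the controls, mouse 4 changed 1 call. Without it Rsad2 rose at 75 mg/kg/day by 0.75 ± 0.20 (limma adjusted p = 0.0475), where 2.25% of all genes rose, higher than all 4 remaining controls in 5 of 5 mice. The ranges of treated mice and those 4 controls did not overlap for Rsad2 at 25 and 75 mg/kg/day, as for 2.34% and 6.48% of all genes, and at 50 mg/kg/day 0 of 8 members and 5.91% of all genes did not overlap. At 25 mg/kg/day the difference was similar in size, 0.73 ± 0.20, with an adjusted p of 0.350. Fitted by probe, the dimmer Rsad2 probes differed by 0.23 ± 0.10 and 0.18 ± 0.11 at 75 mg/kg/day without control 4 (adjusted p = 0.253 and 0.451). Isg15 was at 0.43 ± 0.17 (adjusted p = 0.192), Ifit3 at 0.19 ± 0.09 (0.299), Ifit1 at 0.19 ± 0.09 (0.288) and Irf7 at 0.16 ± 0.09 (0.384) in the same comparison, and Oas2 at -0.27 ± 0.27 (0.672). In all, 7 of 8 members then lay above 0 at 75 mg/kg/day with a median of 0.18, and 1 of 8 passed the threshold. Control 4 was singled out for being the highest mouse in 7 of these same 8 genes. It exceeded the mean of the other controls by 0.07 (Ifit2) to 1.75 (Oas2) log2 units. Leaving it out therefore raises the difference of every member, and these counts are partly set by that choice.

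**Figure D3:**
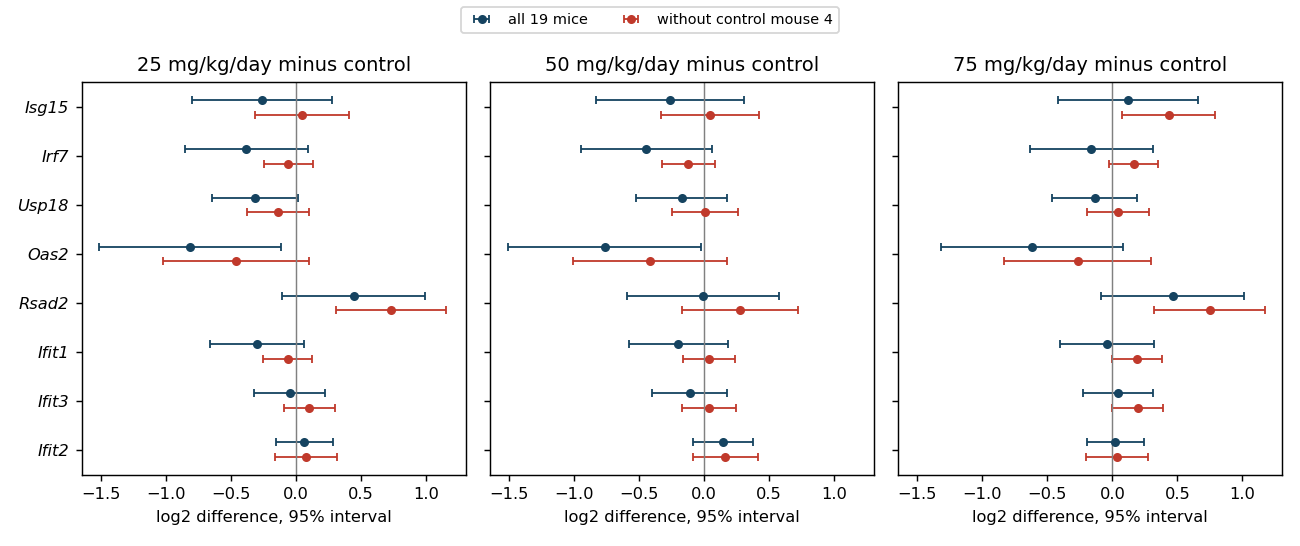
Log2 difference from control with its 95% interval (x axis) for the 8 genes (y axis) at 25, 50 and 75 mg/kg/day, with all 19 mice (blue) and without control mouse 4 (red). With all mice every interval includes 0 except those of Oas2 at 25 and 50 mg/kg/day, and without control 4 Rsad2 at 25 and 75, Isg15 at 75 and, barely, Ifit1 at 75 mg/kg/day lie above 0.

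Differences were also read between mice that shared a slide. Comparing mice of 1 slide, at 75 mg/kg/day Rsad2 was higher in the treated mouse by 0.42 to 0.74 on 3 of 3 slides other than slide 4, and at -0.55 on slide 4, where the control was mouse 4. For Isg15 the 3 values were 0.29 to 0.75, with -0.84 on slide 4. At 25 mg/kg/day Rsad2 differed by 0.62 to 1.16 on 3 of 3 slides other than slide 4, where it differed by -0.73, and at 50 mg/kg/day by 0.38 to 0.57 on 3 of 3 slides. Irf7 at 75 mg/kg/day differed by -0.26 to 0.44 on the other slides and by -1.39 on slide 4. Slide 3 held no control, so mice 8, 15 and 16 do not enter these comparisons. Among them was mouse 15 at 50 mg/kg/day, in which Rsad2 was at -0.45, the lowest of its group. With all mice Rsad2 differed by -0.01 at 50 mg/kg/day. Controls 1 and 2 served at all 3 doses, so the slide counts of different doses are not independent. Setting slide 4 aside rests on control 4 having been singled out by these same genes.

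Neighbouring doses did not separate the members at the adjusted p threshold. With all mice 0 of 8 were called from 25 to 50 mg/kg/day, against 0.0103% of all genes. From 50 to 75 mg/kg/day 0 of 8 were called, against 0% of all genes by limma. In that step with all mice 944 genes had an unadjusted p under 0.05, none of them a member. The largest step was Rsad2, 0.47 ± 0.28 from 50 to 75 mg/kg/day (95% interval -0.11 to 1.06). The linear trend with dose called 0 of 8 members, against 4.64% of all genes. With all mice slopes ran from -0.18 for Oas2 to 0.10 for Rsad2 in log2 units per 25 mg/kg/day. Without control 4 the slope was 0.072 for Ifit1, 0.136 for Isg15 and 0.172 for Rsad2. Unadjusted limma p was 0.0231, 0.0214 and 0.0388, and adjusted p was 0.197, 0.19 and 0.258. The other members had unadjusted p of 0.0885 or more, and the slope of Oas2 was -0.062.

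Whether the genes followed the individual animal's damage response was asked with Cdkn1a of the same mouse as a covariate beside the dose group. Cdkn1a rose by 1.36, 2.60 and 3.28 log2 units at the 3 doses (limma adjusted p = 0.0235, 6.76e-06 and 3.36e-08). Within dose groups 0 of 8 members were related to it, where limma called 0.00517% of all genes, which is Cdkn1a itself. No other gene of the 16 p53 targets was called either. The count of 0 therefore cannot decide whether the members followed damage within dose groups. With median centring in place of loess 7 of 8 members were called, together with 12796 of 19328 genes. The slopes per log2 unit of Cdkn1a ran from -0.18 ± 0.13 for Ifit3 to 0.28 ± 0.27 for Isg15. Their 95% intervals reached from -0.42 to 0.36 for Ifit1 and from -0.58 to 0.93 for Oas2, so slopes of that size in either direction were not detectable with these mice. Control 4 had a Cdkn1a ratio of -1.44 and a mean of -0.46 over 16 p53 targets, at the low end of the controls (-0.46 to -0.34), while treated mice ranged from -0.05 to 1.33.

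**Figure D4:**
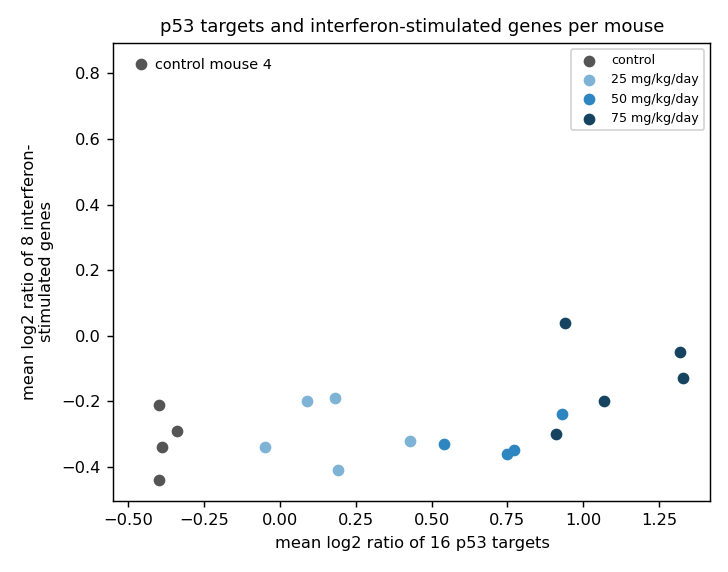
Mean log2 ratio of 16 p53 targets (x axis) and of the 8 measured interferon-stimulated genes (y axis), 1 point per mouse, shaded by BaP dose. Control mouse 4 is at the top left, with 0.83 for the interferon-stimulated genes and -0.46 for p53 targets. The other 18 mice lie between -0.44 and 0.04 on the y axis. The highest of them are mice 20, 18 and 16 at 75 mg/kg/day (0.04, -0.05 and -0.13), and mice 17 and 19 at that dose are at -0.20 and -0.30.

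The rest of the pathway was read from lists of genes grouped by their known roles. Of 35 other interferon-induced effectors tested, 0 were called at 25 and 50 mg/kg/day, and 1 rose at 75 mg/kg/day: Ifitm3, a membrane protein that blocks viral entry, by 0.35 ± 0.10 (limma adjusted p = 0.0408). Of all genes 0.0414%, 0.745% and 2.64% rose at the 3 doses, so 1 of 35 is near the background. Their median difference at 75 mg/kg/day was 0.04. Without control 4, 3 of the 35 rose at 75 mg/kg/day, Ifitm3, Lgals3bp and Phf11d, where 2.25% of all genes rose. Of 22 genes led by interferon gamma 0, 1 and 2 rose at 25, 50 and 75 mg/kg/day and 0 fell, beside those same shares of all genes, and their median difference at 75 mg/kg/day was 0.25. The 3 of 16 interferon ligand genes that passed the filter were not called at any dose, and the other 13 gave no value. Of 18 nucleic acid sensors 0 were called at any dose or in the trend, whereas 6, 11 and 14 of 16 p53 targets rose at the 3 doses.

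Gbp4, a guanylate binding protein, was the pathway gene with the clearest rise. It was at 0.38, 0.19, 0.24, 0.40 and 0.21 in controls 1 to 5, and at 0.57, 0.79, 0.76, 0.55 and 0.81 at 25 mg/kg/day. It was at 0.90, 0.54, 0.83 and 1.11 at 50 mg/kg/day and at 1.21, 0.81, 0.89, 0.90 and 1.27 at 75 mg/kg/day. Every treated mouse lay above every control, control 4 included. The difference was 0.41 ± 0.11, 0.56 ± 0.11 and 0.73 ± 0.11 at the 3 doses (limma adjusted p = 0.293, 0.0195 and 0.000401), and within slides it was above 0 on 4 of 4, 3 of 3 and 4 of 4 slides. Tap1, the peptide transporter of antigen presentation, was at -0.19, -0.34, -0.38, -0.25 and -0.24 in controls 1 to 5. At 75 mg/kg/day it was at 0.28, -0.10, 0.10, 0.11 and 0.42, above all controls, and it rose by 0.44 ± 0.09 (limma adjusted p = 0.0086). Gbp family members are similar in sequence, and the probe's cross-hybridisation was not tested.

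Among receptors and signalling genes, 0 of 21 were called at any single dose, and the trend called 1 rising and 1 falling. Over all genes 0.0517%, 1.08% and 4.14% were called at the 3 doses, and in the trend 2.81% rose and 1.83% fell. Counts of 0 and 1 in 21 are near those shares. Irf9, the DNA-binding part of the ISRE-binding complex, rose by 0.13 ± 0.03 log2 units per 25 mg/kg/day (limma adjusted p = 0.0259). It was at 0.15, 0.46, 0.83, 1.02 and 0.63 in controls 1 to 5 and at 1.10, 0.91, 1.08, 0.92 and 1.08 at 75 mg/kg/day, a difference of 0.40 ± 0.11 (adjusted p = 0.0543), and without control 4 it was called at 75 mg/kg/day as well (0.50, adjusted p = 0.00933). Control 4 was the highest control here too and lay within the range of the 75 mg/kg/day mice. Irf8, a factor of myeloid and B cell development, fell by 0.11 ± 0.03 per 25 mg/kg/day (adjusted p = 0.0271), a call that ended without control 4 (adjusted p = 0.0685) and whose sign turned with median centring of the arrays (0.07). Stat2, a partner of Irf9 in that complex, was not called: it differed from control by -0.17, -0.22 and -0.09 at 25, 50 and 75 mg/kg/day, and the receptor subunit Ifnar1 by 0.04, 0.05 and 0.13, with limma adjusted p of 0.635 or more. Ifnar2 differed by 0.03, -0.01 and 0.00.

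**Figure D5:**
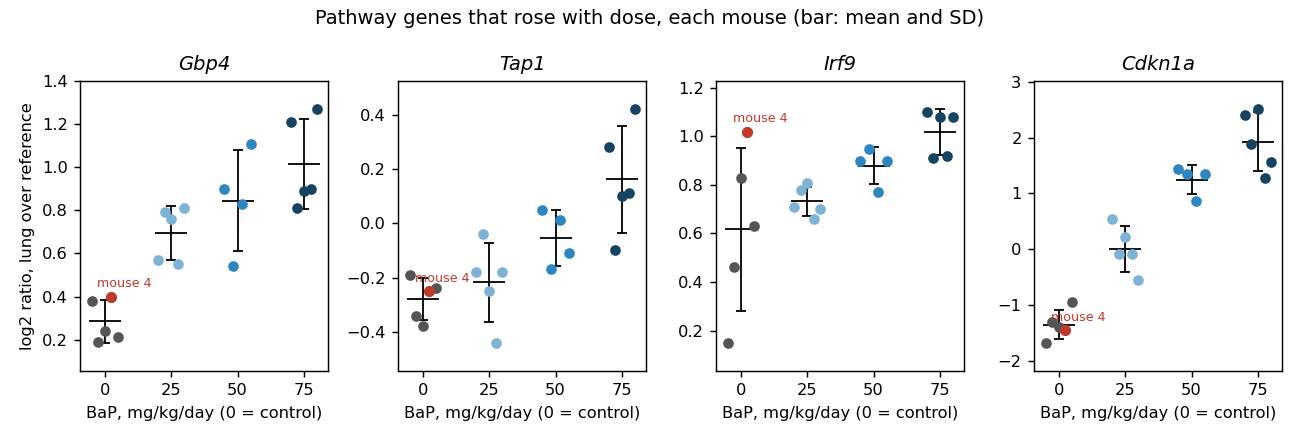
Log2 ratio of lung over reference RNA (y axis) by BaP dose in mg/kg/day (x axis, 0 is vehicle control) for Gbp4, Tap1, Irf9 and, for comparison, the p53 target Cdkn1a. Points are mice, bars are the group mean and SD, and control mouse 4 is red: for Gbp4 all treated mice lie above all controls, and for Irf9 control 4 lies among the mice at 75 mg/kg/day.

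Markers of immune cells that can carry or make interferon signals moved with dose in part. Of all genes 2.64% rose and 1.51% fell at 75 mg/kg/day, and 2.81% rose and 1.83% fell in the trend. At 75 mg/kg/day 3 of 8 B cell markers fell, Cd79b by 0.62 ± 0.15, Blnk by 0.58 ± 0.14 and Tnfrsf13c by 0.46 ± 0.12 (limma adjusted p = 0.0272, 0.0190 and 0.0367). Without control 4, 0 of the 8 were called at that dose and the same 3 fell in the trend, and with median centring Cd79b (0.11) and Blnk (0.18) turned sign at 75 mg/kg/day. Of 8 NK cell markers 1 fell at that dose, Klrb1c by 0.52 ± 0.12 (adjusted p = 0.0191), and Ccl5 fell in the trend. Ccr9, one of 6 plasmacytoid dendritic cell markers, fell by 0.38 ± 0.09 (adjusted p = 0.0242), and Csf3r, one of 10 neutrophil markers, rose by 0.51 ± 0.13 (adjusted p = 0.0251). Of 8 alveolar macrophage markers Car4 rose at 50 mg/kg/day and in the trend Marco rose and Chil3 fell, of which only Marco was called in the trend without control 4, while 0 of 6 monocyte and 0 of 6 T cell markers were called. The mean level of the NK cell list ranged from 0.17 to 0.72 at 75 mg/kg/day and from 0.48 to 1.20 in controls. That of the B cell list ranged from 0.21 to 0.51 at 75 mg/kg/day and from 0.38 to 0.92 in controls. The part of these cells in the values of Gbp4, Tap1 and Irf9 was not tested.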

How the data were processed

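Lung RNA of 19 mice was measured on 2-colour arrays against a common reference. The authors deposited each array's spot intensity values from Agilent's Feature Extraction (version 10.7.3.1 per the file headers), and median spot and local background intensities of both channels were used. A table of log2 ratios deposited by the authors was used as an alternative, and its centring is not stated there. It was compared with loess ratios recomputed without background subtraction (r = 0.995 to 0.998), not with the background-corrected ratios used for the results. Local background was removed by normexp (offset 50, which compresses folds of dim spots) and arrays were normalized by loess in limma 3.58.1 under R 4.3.3. Outlier spots (0.29%) were left out and 0 spots were saturated. A probe was kept if 4 or more arrays had it well above background for lung RNA, and a gene took its brightest probe. Group means, a linear trend and a Cdkn1a covariate were fitted over all 19 arrays with lmFit and eBayes, adjusted by Benjamini-Hochberg over 19328 genes with a threshold of 0.05, and tested on simulated data. Errors after ± are SE for differences and SD for means. The number of arrays limits the precision.

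Members and lists were chosen with earlier results of these data known. Named genes are all members, up to 6 genes per list past the threshold by smallest adjusted p (fewer are given for p53 targets), 5 of 6 fixed pathway genes (the other is not reported here) and the 10 genes most like the members. Probes were named through RefSeq GRCm38.p6 by accession (56.77% of probes). Each mouse number occurs once, so no samples were paired. Alternatives covered background, normalization, filters, probe choice, slide, scan day, array weights and leaving out mice.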

Additional observations from a re-analysis of the deposited data

Results flagged for a closer look

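In 4 members the gap from control 4 to the next control exceeded the 95% critical value of Dixon's test: Ifit1 at 0.91, Ifit3 at 2.75, Irf7 at 0.18 and Rsad2 at 1.25 on the log2 ratio scale. Ifitm3 was likewise at 0.84 in control 4, against 0.26 to 0.35 in the other controls. Oas2 was at -0.28 in mouse 9 at 25 mg/kg/day, the highest of its group and on the same slide as control 4. Mouse 20 at 75 mg/kg/day, whose array was marked for evaluation, was the highest of its group for Stat2 (0.99) and the lowest for Ifnar1 (-0.19). Cdkn1a was lowest in mouse 14 at 50 mg/kg/day (0.86), and Ccr9 was lowest in mouse 6 at 25 mg/kg/day (-0.58). In all, 10 of 128 groups passed the critical value, and chance alone passes about 1 in 20. The groups reuse the same mice over genes that vary together, so they are not independent and that rate is only a rough guide. Of the 32 groups of member genes 5 passed, 4 of them through control 4.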

How the results depend on the processing

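The counts of members called stayed at 0 over 37 alternatives at 25 and 50 mg/kg/day and in the trend, while the count of all genes ran from 0 to 274, from 9 to 914 and from 110 to 1838. At 75 mg/kg/day the count was 0 to 1 when each mouse was left out in turn, and 1 (Rsad2, 0.79, adjusted p = 0.0367) with slide as a block and control 4 left out, a setting chosen after seeing the data. All genes gave 412 to 2060 calls. Over its 37 alternatives the adjusted p of Rsad2 at 75 mg/kg/day ran from 0.0367 to 0.701, with the difference between 0.27 and 0.88, and robust regression, also chosen afterwards, gave 0.63 (adjusted p = 0.0645). Steps between doses called 0 members in all 35 alternatives run. Median centring in place of loess moved the median of all genes at 75 mg/kg/day to 0.351, and with it 7 members were related to Cdkn1a together with 12796 of 19328 genes, whose median slope was 0.36. The cause was not tested. It also turned Cd79b (0.11) and Blnk (0.18) at 75 mg/kg/day and the trends of Blnk (0.038) and Irf8 (0.072). Gbp4 and Tap1 were called at 75 mg/kg/day in all 37 alternatives, Ifitm3 in 20 of them, and Irf9 in the trend in 28. No paired analysis was possible because every mouse number occurs in 1 group only, and slide, which held mice of several groups, was fitted as a block instead. Lung spot intensity over background had a median of 51 for Oas2, 64 for Ifit2, 73 for Irf7 and 76 for Ifit1, against 1351.5 for Ifit3, and folds of dim spots are the more compressed.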

Other observations

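Genes of airway secretion and defence led the genes by which control 4 exceeded the other controls. They are named after their values were seen, with no replicate and no test. Among 19319 ranked genes the largest log2 excesses were those of Reg3g (5.87), a secreted antibacterial lectin, Bpifa1 (5.10), a secretory protein of the upper airway, Clca1 (4.85), a goblet cell product, Ltf (4.79), which encodes lactoferrin, and Muc5b (3.94), an airway mucin. Ifi27l2a, an interferon-induced gene, ranked 7 (3.33), Agr2 8 (3.28), and Nppa, a heart atrial hormone, 9 (3.28).

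The airway genes were not high in control 4 alone. Relative to the same 4 controls, the highest treated mouse reached 5.42 for Reg3g, 4.98 for Bpifa1, 4.46 for Ltf and 2.93 for Muc5b. Clca1 reached only 0.50 in any treated mouse and Ifi27l2a 0.90. Among the members the highest treated mouse reached 0.28 for Irf7, 0.305 for Ifit1, 0.34 for Usp18 and 0.36 for Oas2. It reached 0.39 for Ifit3, 0.41 for Ifit2, 0.71 for Isg15 and 1.305 for Rsad2. The members were thus not alike: for Rsad2 this was close to the 1.43 of control 4, and for Ifit2 above its 0.07.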
